A study of Mus musculus with 2 samples.

Results

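The enzymes and transporters of glycolysis, of the pentose phosphate pathway and of the fate of pyruvate were examined in pre CFU-E, an early stage of committed erythroid progenitors, from 5-FU-treated mice. The set holds 35 genes chosen by name for their place in these pathways, out of 20660 genes that the array probes could be named for. No measured value was part of the rule of choice, but earlier results of these data were known when the set was chosen. All 35 had at least 1 named probe, with 52 probes in all.

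Each genotype was represented by 1 Agilent array. The WT array carried RNA of pre CFU-E from C57BL/6 mice without the mutation, and the ESAM-KO array carried RNA of the same sorted population from mice of the same strain that lack ESAM, an adhesion molecule of endothelial cells and of blood stem cells. Every mouse of both groups had been given 5-FU, a drug that kills cycling cells, as 1 injection of 120 mg/kg, and was killed on day 8. The mice were 8 to 12 weeks old and 3 were pooled for each genotype. Cells were sorted from the bone marrow of the long hind leg bones as c-Kit+ Sca1- cells without lineage markers (Lin-) that were endoglin+ CD150+, with CD41Lo and FCgRII/III-/Lo staining, and 20 ng of total RNA was amplified by the Ovation Pico WTA System V2 before labelling with Cy3. The knockout was not limited to a cell type, and mice that had not received 5-FU were not analysed here. Whether the WT mice of this pool were littermates is not given in the sources used here. As each genotype had 1 array, nothing was replicated, values carry neither SD nor p-value, and genotype, pool of mice, sort and amplification cannot be told apart.

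Glycolysis splits glucose into pyruvate. Hexokinase traps glucose inside the cell, phosphofructokinase commits it to the pathway, and the steps from aldolase to pyruvate kinase recover ATP and NADH. The pentose phosphate pathway branches off right after hexokinase, and yields NADPH in its oxidative arm and ribose phosphate for nucleotides in its non-oxidative arm. The pathway matters for red cells in particular, because mature red cells have no mitochondria, make their ATP by glycolysis alone, keep glutathione reduced with NADPH and tune oxygen release with bisphosphoglycerate. Many of these genes are also known targets of HIF, the transcription factor stabilised by low oxygen.

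Values are the scanner software's background-corrected intensity, given first as deposited. Log2 ratios, ESAM-KO over WT, were taken after each array had been set to its 75th percentile, 201.4 for WT and 251.1 for ESAM-KO, which lowers every log2 ratio by 0.32. The error given is the software's own error of the spots carried to the log2 ratio, which covers noise within an array and neither amplification nor biology, and it was 0.20 for most of the enzymes. Where a gene had several probes, the brightest stands for it. A probe that was well above background on 1 array only gives a bound, for which the dim array is given its own signal or, if higher, its detection floor (the lowest intensity that any probe above background had there, 12.6 for WT and 13.2 for ESAM-KO). In pooled cells, fewer cells that express a gene and less RNA per cell cannot be told apart.

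As a check of the labels, the sorted population expressed the genes of its stage on both arrays. All 16 pre CFU-E and erythroid markers were well above background on both arrays, beside 12615 of all 20660 named genes. Their median log2 ratio was -0.38. Slc4a1 and Alas2, which are markers of later erythroid cells, were among those lower by more than 2-fold. Of the sorting markers, Kit read 3414 (WT) and 3326 (ESAM-KO) and Eng 374.9 and 268.7, while Slamf1, which encodes CD150, was near background at 17.8 and 23.0. The only probe of the targeted gene, Esam, read 27.4 (WT) and 20.6 (ESAM-KO), near background on both arrays, and checks the genotype only weakly. For other cell types, markers were counted among those with a ratio. Lower by more than 2-fold were 4 of 7 of B cells and 3 of 4 of mast cells, basophils and eosinophils. So were 1 of 6 of macrophages, 2 of 7 of megakaryocytes, 1 of 4 of endothelium and 0 of 3 of T and NK cells. Among all genes with a ratio, 8.43% were lower and 6.99% higher by that much. Higher were 1 marker each of macrophages, of mast cells, basophils and eosinophils, of megakaryocytes and of endothelium. The part of these cell types in the enzyme values was not tested. Markers of neutrophils set the arrays apart, with the same direction in all 9. Their summed intensity, relative to the 75th percentile, was 249.5 for WT and 35.7 for ESAM-KO, and their median log2 ratio was -3.35. They were not alone in this. The 4 markers of mast cells, basophils and eosinophils with a ratio had a median of -3.34, with 1 above 0. The 7 B cell markers with a ratio had a median of -1.72, also with 1 above 0.

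The promoters of the enzymes that passed a 2-fold difference are given with those of 2 textbook HIF targets of the pathway, since HIF sites are a well known feature of this pathway. Each is the stretch of 250 bases that ends just before the transcription start, 5′ to 3′ on the strand of the gene, from RefSeq on GRCm38.p6. Capitals mark the core letters ACGTG or GCGTG that HIF can bind, read on both strands, so that CACGT and CACGC mark a match on the other strand.
Pgam1 (chr19:41911621-41911870, plus strand): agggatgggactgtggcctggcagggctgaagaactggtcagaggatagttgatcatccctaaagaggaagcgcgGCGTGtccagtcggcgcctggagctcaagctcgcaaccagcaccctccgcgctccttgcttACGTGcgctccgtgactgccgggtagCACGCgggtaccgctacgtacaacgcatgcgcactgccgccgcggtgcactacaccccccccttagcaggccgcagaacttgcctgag
Hk3 (chr13:55021386-55021635, minus strand): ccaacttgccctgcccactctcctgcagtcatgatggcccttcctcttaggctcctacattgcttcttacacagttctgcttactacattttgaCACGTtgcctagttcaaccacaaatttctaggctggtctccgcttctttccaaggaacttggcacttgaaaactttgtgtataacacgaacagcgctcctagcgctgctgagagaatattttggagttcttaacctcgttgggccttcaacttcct
Pfkfb4 (chr9:108991652-108991901, plus strand): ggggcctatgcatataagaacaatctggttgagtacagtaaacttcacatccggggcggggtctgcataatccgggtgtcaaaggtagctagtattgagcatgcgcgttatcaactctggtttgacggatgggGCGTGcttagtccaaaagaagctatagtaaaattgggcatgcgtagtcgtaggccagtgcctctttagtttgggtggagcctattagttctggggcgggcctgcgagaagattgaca
Pgk1 (chrX:106186850-106187099, plus strand): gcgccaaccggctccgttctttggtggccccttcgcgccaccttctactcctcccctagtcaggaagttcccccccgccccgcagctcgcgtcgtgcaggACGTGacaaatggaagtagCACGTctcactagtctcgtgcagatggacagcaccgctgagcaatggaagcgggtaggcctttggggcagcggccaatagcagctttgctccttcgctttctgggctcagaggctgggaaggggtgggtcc
Ldha (chr7:46845554-46845803, plus strand, 1 of 2 starts): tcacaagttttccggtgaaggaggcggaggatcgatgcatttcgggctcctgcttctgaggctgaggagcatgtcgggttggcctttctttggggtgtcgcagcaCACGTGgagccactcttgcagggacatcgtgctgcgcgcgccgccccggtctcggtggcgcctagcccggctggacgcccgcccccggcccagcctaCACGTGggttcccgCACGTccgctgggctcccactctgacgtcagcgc
The window held 3 matches in Pgam1, 1 in Hk3, 1 in Pfkfb4, 2 in Pgk1 and 5 in this Ldha window, where CACGTG is read on both strands and counts as 2 overlapping matches. Over all starts of the 35 genes, 40 of 55 windows, or 72.7%, held at least 1 match, beside 38.6% of the 32851 windows of all genes and 51.4% of the 14205 windows of genes with a ratio on these arrays. Windows of nearby starts can overlap, as for Aldoa, Eno1 and Pfkm, so that the same site can count again. By gene, 30 of the 35 held a match in at least 1 window, and the shares of all genes were counted by window only. A GATA match (GATA after A or T and before A or G, both strands) stood in 14 of the 55 windows, or 25.5%, beside 26.5% of all windows and 19.3% of those of genes with a ratio. Such letters are a description of sequence, and binding was not measured.

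Both arrays showed 31 of the 35 genes well above background, 2 gave a bound, and Pfkfb1 and Pfkfb2 were not well above background on either array. Of the 33 with a ratio, 1 was more than 2-fold higher in ESAM-KO, Pgam1, beside 6.99% of all 14136 genes with a ratio. By the same measure 2 were lower, Hk3 and Pfkfb4, beside 8.43% of all genes. In either direction this makes 3 of 33 genes, beside a background of 15.4%. The median log2 ratio of the 33 was 0.02, with 18 above 0 and 15 below, and that of all genes with a ratio was 0.00. The count above 0 was 14 with scaling to the median and 25 without scaling, because a scaling shifts all genes alike. Without scaling the ratios of Gpi1, Pkm, Pklr, Bpgm, Pdk1, G6pdx and Taldo1 turned from below to above 0, and with scaling to the median those of Hk1, Tpi1, Rpia and Tkt turned from above to below 0. The direction of these 11 genes thus rests on the scaling. With normexp background correction and quantile normalization, the ratio of Aldoc also turned, from 0.14 to -0.04.

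**Figure D1:**
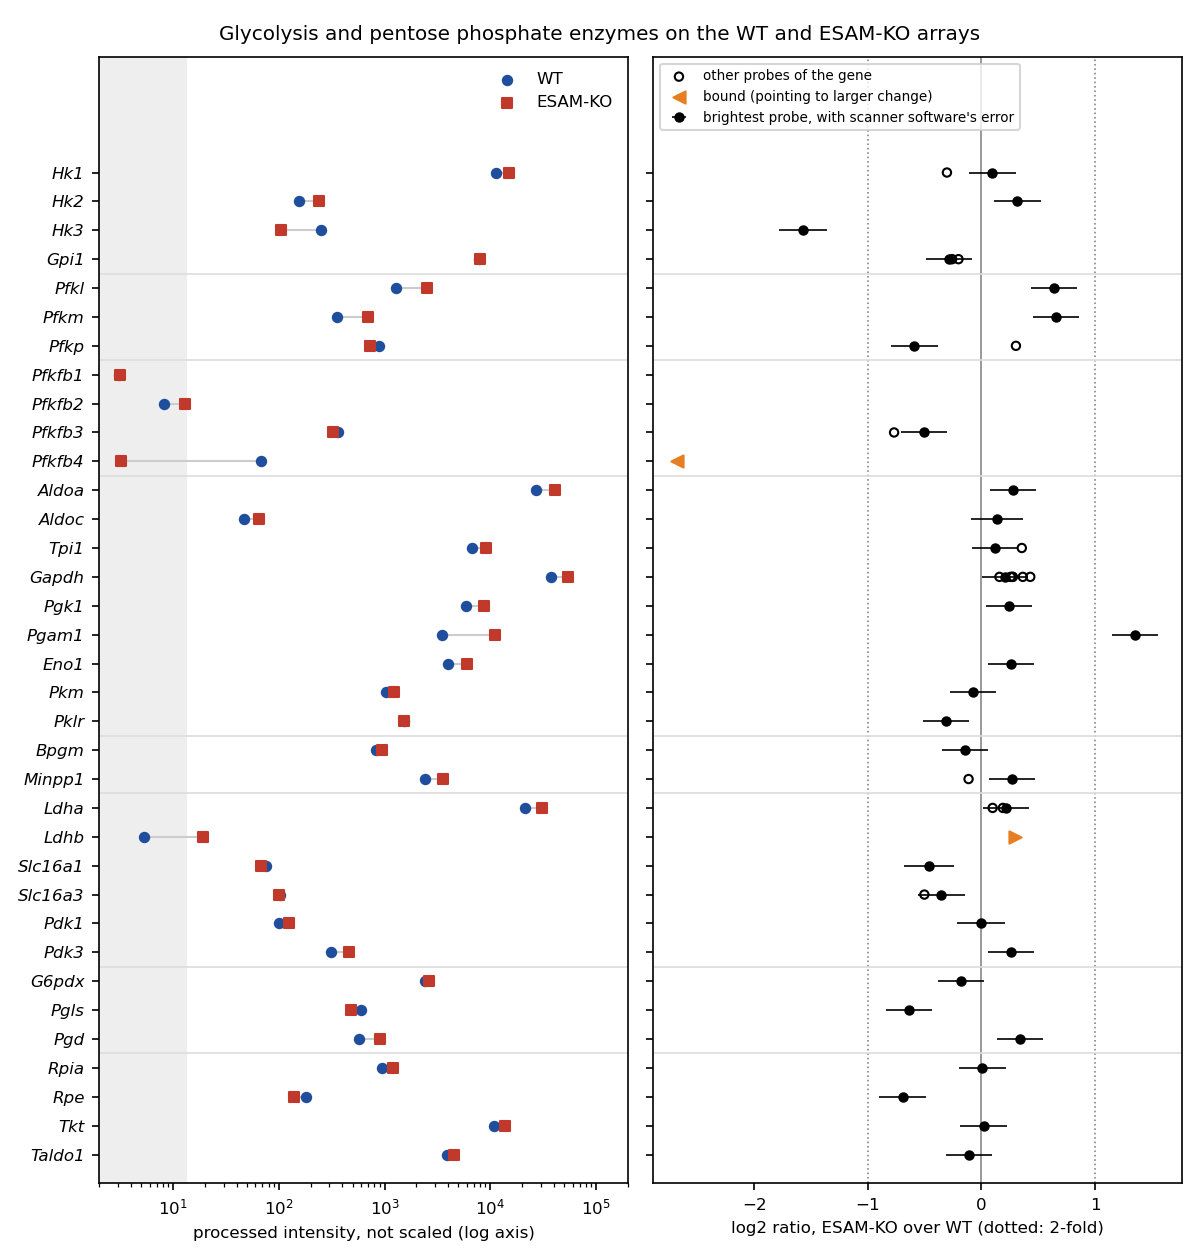
The left panel plots the processed intensity of the brightest probe of each of the 35 genes, not scaled, on a log axis for the WT (circles) and ESAM-KO (squares) arrays, with the range up to 13.2, where signals are not well above background, shaded. The right panel plots the log2 ratio (ESAM-KO over WT) after scaling, with bars for the scanner software's error, open circles for further probes of the gene and triangles for bounds, and only Pgam1, Hk3 and Pfkfb4 lie beyond the dotted lines at 2-fold.

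Bright genes were seldom past 2-fold on these arrays, and more of the enzymes lay among the bright genes than in any other quartile of signal. Among genes measured on both arrays, 17 of the 31 enzymes lay in the brightest quartile of signal, where 2.63% of all 3154 genes were past 2-fold. Of these 17, 1 was past 2-fold, their median log2 ratio was 0.12 and 12 were above 0, beside a median of 0.02 and 51.9% above 0 for all genes of that quartile. The 14 enzymes in the other quartiles had 1 gene past 2-fold, Hk3, where 17.9%, 19.1% and 10.8% of all genes were past it from the dimmest quartile up.

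**Figure D2:**
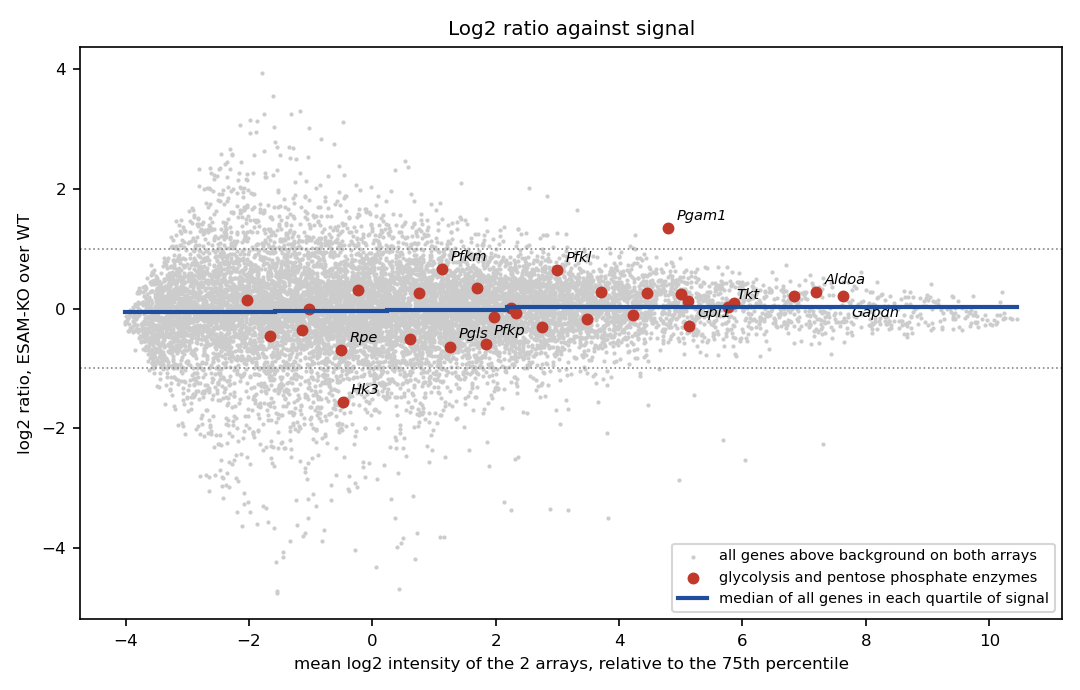
Log2 ratio of ESAM-KO over WT on the vertical axis against the mean log2 intensity of both arrays relative to the 75th percentile, for all 12615 genes well above background on both arrays (grey) and for the 31 enzymes among them (red), with the median of each quartile of signal as a line and 2-fold as dotted lines. The spread of all genes narrows toward bright signals, and Pgam1 stands above the other bright enzymes.

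Glucose is phosphorylated by hexokinases, and the isoforms differed in direction. Hk1 (NM_001146100), the ubiquitous isoform, read 11359 (WT) and 15141 (ESAM-KO), for a log2 ratio of 0.10. Its other probe, with 4458 and 4503, gave -0.30, so that the probes of Hk1 lay on either side of 0. Hk2, the inducible isoform, read 153.7 (WT) and 238.4 (ESAM-KO), for a log2 ratio of 0.31 with an error of 0.21.

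Hk3 (NM_001033245) is the hexokinase of granulocytes and monocytes. It read 248.7 (WT) and 104.5 (ESAM-KO), and was lower in ESAM-KO by 2.97-fold, a log2 ratio of -1.57 with an error of 0.21. The ratios of Hk1 and Hk3 differed by 1.67, with an error of 0.29. A common shift of an array leaves this difference alone, but normexp with quantile normalization makes it smaller, with Hk1 at 0.08 and Hk3 at -1.03. The difference uses the brightest probe of Hk1, and would be smaller with the other Hk1 probe, at -0.30. Hk3 kept more than a 2-fold difference under each other scaling, filter and probe choice, between -1.70 and -1.03, with the smallest size under normexp background correction. Markers of neutrophils were lower as well. All 9 of 9 were more than 2-fold lower in ESAM-KO, with a median log2 ratio of -3.35 and a range from -4.68 to -1.64, and their summed intensity was 50257 in WT and 8975 in ESAM-KO. None of these markers was at background on the ESAM-KO array, where S100a9, a calcium-binding protein of granulocytes, still read 6901. The 6 macrophage markers with a ratio had a median log2 ratio of -0.07, with 3 above 0 and 3 below. The part of granulocyte or monocyte RNA in the value of Hk3 was not tested.

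Glucose phosphate isomerase, Gpi1, makes fructose phosphate from the product of hexokinase. It read 7848 (WT) and 8018 (ESAM-KO), for a log2 ratio of -0.29. Its other probes gave -0.20 and -0.26, so that the 3 probes lay within 0.09 of each other. Without scaling the ratio of the brightest probe of Gpi1 was 0.03, so that its direction rests on the scaling.

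Phosphofructokinase is the committed step of glycolysis, and forms tetramers of liver, muscle and platelet type subunits. The liver and muscle subunits were both higher in ESAM-KO, by about the same ratio and by less than 2-fold. Pfkl (NM_008826), the liver type, read 1291 (WT) and 2503 (ESAM-KO), for a log2 ratio of 0.64. Pfkm (NM_021514), the muscle type, was present as 10 spots of 1 probe, which read between 327.0 and 379.7 in WT, with a median of 353.4, and between 648.9 and 771.3 in ESAM-KO, with a median of 697.5. The ESAM-KO spots of Pfkm all lay above the WT spots before scaling, and after scaling its log2 ratio was 0.66, with single spots between 0.46 and 0.77 and an SD over spots of 0.11. These spots are repeats of 1 labelled sample and not biological replicates.

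Pfkp (NM_019703), the platelet type, gave no single answer. Its brighter probe read 881.7 (WT) and 730.5 (ESAM-KO), for a log2 ratio of -0.59. Its other probe read 313.8 and 482.9, a log2 ratio of 0.30. The probes differed by 0.89, which was the largest difference between probes among the 9 enzymes with several probes on both arrays. For this reason the difference of 1.23 between the ratios of Pfkl and Pfkp rests on the choice of probe.

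Fructose-2,6-bisphosphate, made and removed by the Pfkfb enzymes, is the strongest known activator of phosphofructokinase. Of the 4 family members, Pfkfb1, the liver form, read 3.05 (WT) and 3.14 (ESAM-KO), and Pfkfb2, the heart form, read 8.20 and 12.9, all not well above background. Pfkfb3, the inducible form whose kinase activity dominates, read 366.4 (WT) and 322.0 (ESAM-KO), for a log2 ratio of -0.50. Its other probe read 140.8 and 103.1, a ratio of -0.77, so that both probes of Pfkfb3 were less than 2-fold lower in ESAM-KO.

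Pfkfb4 (NM_173019), another inducible member, had the largest difference of the set, as a bound. It read 67.5 (WT) and 3.24 (ESAM-KO), where it was not well above background, and was at least 6.40-fold lower in ESAM-KO. Its other probe, with 9.13 and 2.66, did not rise well above background on either array, so that the difference rests on 1 spot per array. With normexp correction the bound shrank to -0.996, just within 2-fold.

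The 9 enzymes from aldolase to pyruvate kinase lay mostly above 0 by small amounts. After scaling 7 of the 9 were above 0, with a median log2 ratio of 0.21 for all 9, and the number was 6 with scaling to the median, 6 with normexp and 9 without scaling. The exceptions were the pyruvate kinases.

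Aldolase splits fructose bisphosphate into triose phosphates. Aldoa, the form of muscle and red cells, read 26818 (WT) and 40543 (ESAM-KO), for a log2 ratio of 0.28. Aldoc, the brain form, read 46.9 and 64.3, a ratio of 0.14 with an error of 0.23. Tpi1, which interconverts the triose phosphates, read 6711 (WT) and 9099 (ESAM-KO), with a log2 ratio of 0.12 at this probe and 0.36 at the other.

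Gapdh oxidises glyceraldehyde phosphate and yields NADH. It had 7 probes, and the brightest read 37303 (WT) and 53747 (ESAM-KO), for a log2 ratio of 0.21. All 7 probes of Gapdh lay above 0, between 0.16 and 0.43. Pgk1, which makes the ATP of the next step, read 5910 (WT) and 8716 (ESAM-KO), for a log2 ratio of 0.24. After scaling, Aldoa, Gapdh and Pgk1 thus lay between 0.21 and 0.28 above WT on the log2 scale, beside a scanner error of 0.20.

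Pgam1 (NM_023418), phosphoglycerate mutase, moves the phosphate between carbons of phosphoglycerate. It stood apart from its neighbours in the pathway. It read 3502 (WT) and 11128 (ESAM-KO), and was higher in ESAM-KO by 2.55-fold, a log2 ratio of 1.35 with an error of 0.20. Of the 3154 genes in the brightest quartile of signal, 25 were more than 2-fold higher in ESAM-KO and only 4, Pgam1 included, had a ratio as high as that of Pgam1. The ratio of Pgam1 exceeded that of Gapdh by 1.14 and that of Eno1, the enzyme that acts on its product, by 1.09, each with an error of 0.29. With normexp and quantile normalization Pgam1 was at 1.32, Gapdh at 0.36 and Eno1 at 0.24. Under the other scalings, filters and probe choices the log2 ratio of Pgam1 stayed between 1.22 and 1.67. The value comes from 1 probe with 1 spot per array, so no other probe of the gene could be set beside it, and binding of related sequences to it was not tested.

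Eno1, enolase, read 4019 (WT) and 6009 (ESAM-KO), for a log2 ratio of 0.26. Eno1b, a near-identical copy named among the neighbours of the pathway, read 3846 and 5954, a ratio of 0.31, and the probes of these copies can share cDNA. The pyruvate kinases finish glycolysis, and neither was above 0 after scaling, while without scaling both were, Pkm at 0.24 and Pklr at 0.01. Pkm, the form of most tissues and of progenitors, read 1041 (WT) and 1230 (ESAM-KO), for a log2 ratio of -0.08. Pklr, the form of liver and of mature red cells, read 1514 and 1523, a ratio of -0.31. The ratios of Pkm and Pklr differed by 0.23, which is less than the error of that difference, 0.29.

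Red cells divert part of the pathway through bisphosphoglycerate, which lowers the oxygen affinity of haemoglobin. Bpgm, the mutase that makes it, read 828.8 (WT) and 935.4 (ESAM-KO), for a log2 ratio of -0.14. The ratio of Pgam1 exceeded that of its homologue Bpgm by 1.49, with an error of 0.29. Minpp1, a phosphatase that can remove it, read 2392 (WT) and 3597 (ESAM-KO), for a log2 ratio of 0.27, while its other probe, with 952.0 and 1097, gave -0.11.

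Pyruvate leaves glycolysis as lactate or enters the mitochondria. Ldha, the lactate dehydrogenase subunit that favours lactate, read 21332 (WT) and 30928 (ESAM-KO), for a log2 ratio of 0.22. Its other probes gave 0.19 and 0.10, so that the 3 probes of Ldha lay within 0.12 of each other. Ldhb, the subunit of oxidative tissues, was not well above background in WT, at 5.31, and read 19.2 in ESAM-KO, near background, which makes it at least 1.23-fold higher. Without a filter on dim probes its log2 ratio would be 1.54, and this value is the reason why Ldhb counts as past 2-fold in that setting.

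The monocarboxylate transporters, which carry lactate and pyruvate across the membrane, both had lower scaled signals in ESAM-KO. Slc16a1 read 75.2 (WT) and 68.0 (ESAM-KO), for a log2 ratio of -0.46 with an error of 0.22. Slc16a3, the form of highly glycolytic cells, read 103.3 and 100.9, a ratio of -0.35, and -0.50 at its other probe. Pyruvate dehydrogenase kinases switch off the entry of pyruvate into the citric acid cycle. Pdk1 read 99.5 (WT) and 123.6 (ESAM-KO), for a log2 ratio of -0.01, and Pdk3 read 309.5 and 461.5, a ratio of 0.26.

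The oxidative arm of the pentose phosphate pathway has 3 enzymes in series, and these did not share a direction. G6pdx, the dehydrogenase at its entry, read 2388 (WT) and 2628 (ESAM-KO), for a log2 ratio of -0.18. Pgls, the lactonase, read 600.0 and 481.3, a ratio of -0.64. Pgd, the other dehydrogenase, read 578.5 and 914.3, a ratio of 0.34. Pgd exceeded Pgls by 0.98, with an error of 0.29, while each lay within 2-fold.

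The non-oxidative arm had a median of -0.05 over its 4 enzymes. Rpia, the ribose phosphate isomerase, read 950.4 (WT) and 1193 (ESAM-KO), for a log2 ratio of 0.01. Rpe, the epimerase that acts on the same substrate, read 180.2 and 138.9, a ratio of -0.69, the lowest of both arms. Tkt, transketolase, read 10905 (WT) and 13775 (ESAM-KO), a ratio of 0.02, and Taldo1, transaldolase, read 3914 and 4516, a ratio of -0.11. Transketolase and transaldolase link the arm back to glycolysis, and after scaling neither differed by more than the scanner error.

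Probes of the same gene gave a measure of precision within these arrays. For the 9 enzymes with several probes well above background on both arrays, the log2 ratios of a gene spanned a median of 0.26, beside 0.47 for all 3056 such genes. The span was below the scanner error for Gpi1, Ldha and Slc16a3. It was 0.23 for Tpi1, 0.26 for Pfkfb3, 0.27 for Gapdh, 0.38 for Minpp1, 0.40 for Hk1 and 0.89 for Pfkp, so that a small ratio from a single probe is within what another probe of the same gene can give.

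**Figure D3:**
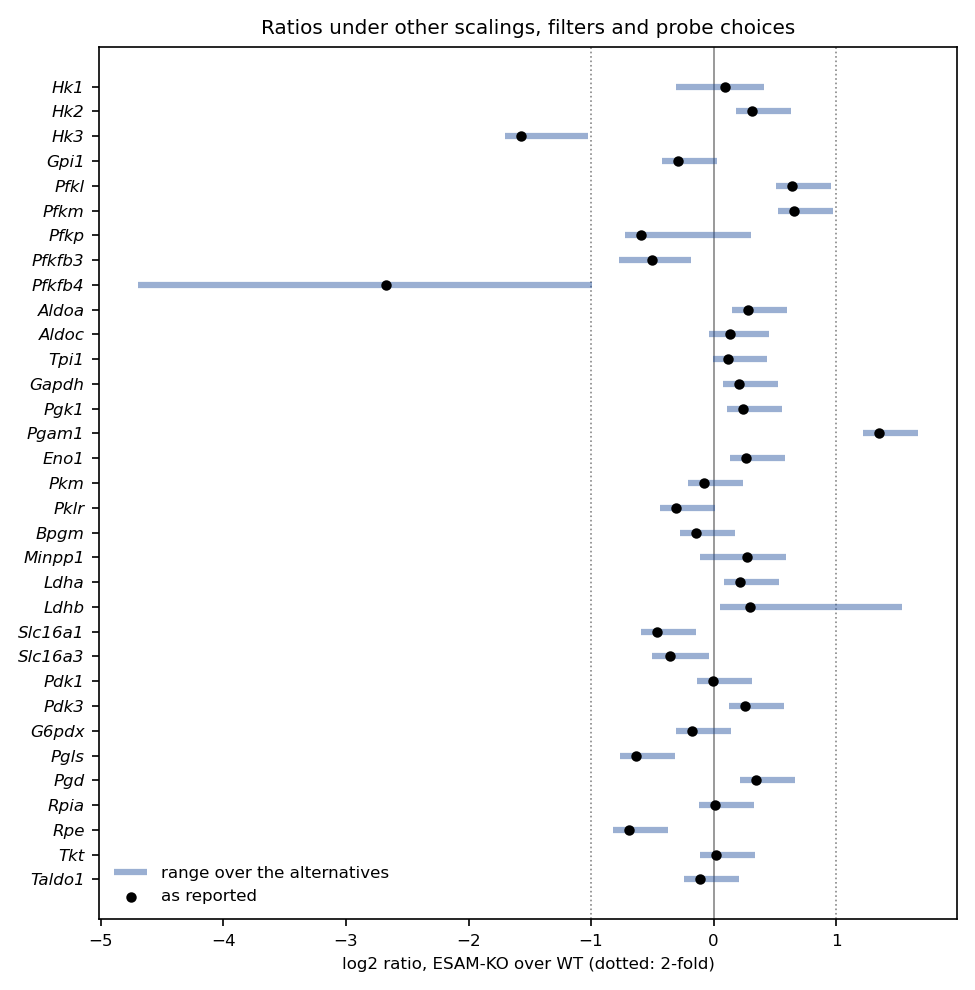
Log2 ratio of ESAM-KO over WT for the 33 genes with a ratio as reported (points), with the range over the other scalings, filters and probe choices (bars) and 2-fold as dotted lines. Pgam1 and Hk3 stay beyond 2-fold in every setting, and Pfkfb4 has the widest range, from -4.70 to -0.996. The ranges of Hk1, Gpi1, Pfkp, Aldoc, Tpi1, Pkm, Pklr, Bpgm, Minpp1, Pdk1, G6pdx, Rpia, Tkt and Taldo1 span 0.

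HIF letters in the promoter windows were set beside the ratios as a description. Among the 28 genes with a match in at least 1 window and a ratio, the median log2 ratio was 0.12 and 17 were above 0, from -2.68 for the bound of Pfkfb4 to 1.35 for Pgam1. The 5 genes without a match were Gpi1, Tpi1, Pklr, Bpgm and Rpe, with a median of -0.29 and 1 above 0. Both counts above 0 depend on the scaling. Of the genes without a match, Gpi1, Tpi1, Pklr and Bpgm change direction with it. Of those with a match, Hk1, Pkm, Pdk1, G6pdx, Rpia, Tkt and Taldo1 do. Aldoc, which also has a match, turned below 0 with normexp and quantile normalization. Both ends of the range carried the letters, as the printed promoters of Pgam1, Hk3 and Pfkfb4 show. The mRNA of the factor itself, Hif1a, read 264.6 (WT) and 318.0 (ESAM-KO), for a log2 ratio of -0.05, and HIF is controlled mostly at the protein, which was not measured.

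The genes next to these pathways, a list of 75, were set beside the enzymes. Of these, 58 had a ratio, with a median of -0.02, and 10 were past 2-fold, 4 higher and 6 lower. The 10 of 58 stood beside the background of 15.4%, and the enzymes themselves had 3 of 33. Of the 7 glucose transporters, 4 had a ratio and 1 was past 2-fold. Slc2a4, the insulin-regulated transporter, was present as 8 spots and read 112.3 (WT) and 15.7 (ESAM-KO), near background there, a log2 ratio of -3.16 with an error of 0.35 that shrank to -1.33 with normexp. Slc2a1, another glucose transporter, read 166.8 and 165.5, a ratio of -0.33.

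Isoforms outside the 35 genes gave 14 ratios of 19, with 2 past 2-fold. Pdk2, a broadly expressed pyruvate dehydrogenase kinase, read 370.9 (WT) and 115.9 (ESAM-KO), for a log2 ratio of -1.997, which lay 1.99 below that of Pdk1 and was -1.44 with normexp. H6pd, the counterpart of G6pdx in the endoplasmic reticulum, read 463.7 and 253.1, a ratio of -1.19, which lay 1.01 below that of G6pdx. Pdk2 and H6pd were named because they were past 2-fold, so these pairs do not show how isoforms compare with the core set in general.

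Of 10 genes for pyruvate entry into mitochondria, 9 had a ratio. Dlat, the acetyltransferase of pyruvate dehydrogenase, read 171.9 (WT) and 443.9 (ESAM-KO), for a log2 ratio of 1.05. The pyruvate carrier subunits Mpc1 and Mpc2 were at -0.01 and -0.07. On the glycogen and gluconeogenesis side, 10 of 14 had a ratio, and those past 2-fold were Pgm1, which joins glycogen to glycolysis, at 1.14 (140.5 in WT and 386.9 in ESAM-KO), and Pygl, the liver form of glycogen phosphorylase, at -1.14 (1483 and 841.0). Tigar, a phosphatase that steers sugar phosphate toward the pentose phosphate pathway, did not rise well above background on either array. None of the 4 genes with a ratio on the ribose phosphate side was past 2-fold.

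The partners of the monocarboxylate transporters went opposite ways. Emb, embigin, read 242.1 (WT) and 53.3 (ESAM-KO), for a log2 ratio of -2.50 that shrank to -1.57 with normexp, and Bsg, basigin, the partner of Slc16a1 and Slc16a3 in most cells, read 1861 and 3361, a ratio of 0.53. Of 18 HIF regulators and HIF targets outside glycolysis, 15 had a ratio, with a median of 0.06. Vegfa, a HIF-driven growth factor of vessels, was higher at 1.03 at its brighter probe and at 0.46 at the other. Car12, a carbonic anhydrase, gave a bound of 1.40 (2.94 in WT, not well above background, and 41.3 in ESAM-KO), which was 0.55 with normexp. Kdm3a, a HIF-induced histone demethylase, was lower at -1.03, with 222.2 in WT and 135.6 in ESAM-KO. Several of these neighbours were past 2-fold by little. Without scaling Kdm3a, Pygl and H6pd were within it, at -0.71, -0.82 and -0.87, as were Dlat and Vegfa with scaling to the median, at 0.92 and 0.90. With normexp Pgm1, Dlat, Vegfa, H6pd and Kdm3a were within it, at 0.87, 0.90, 0.94, -0.91 and -0.79.

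**Figure D4:**
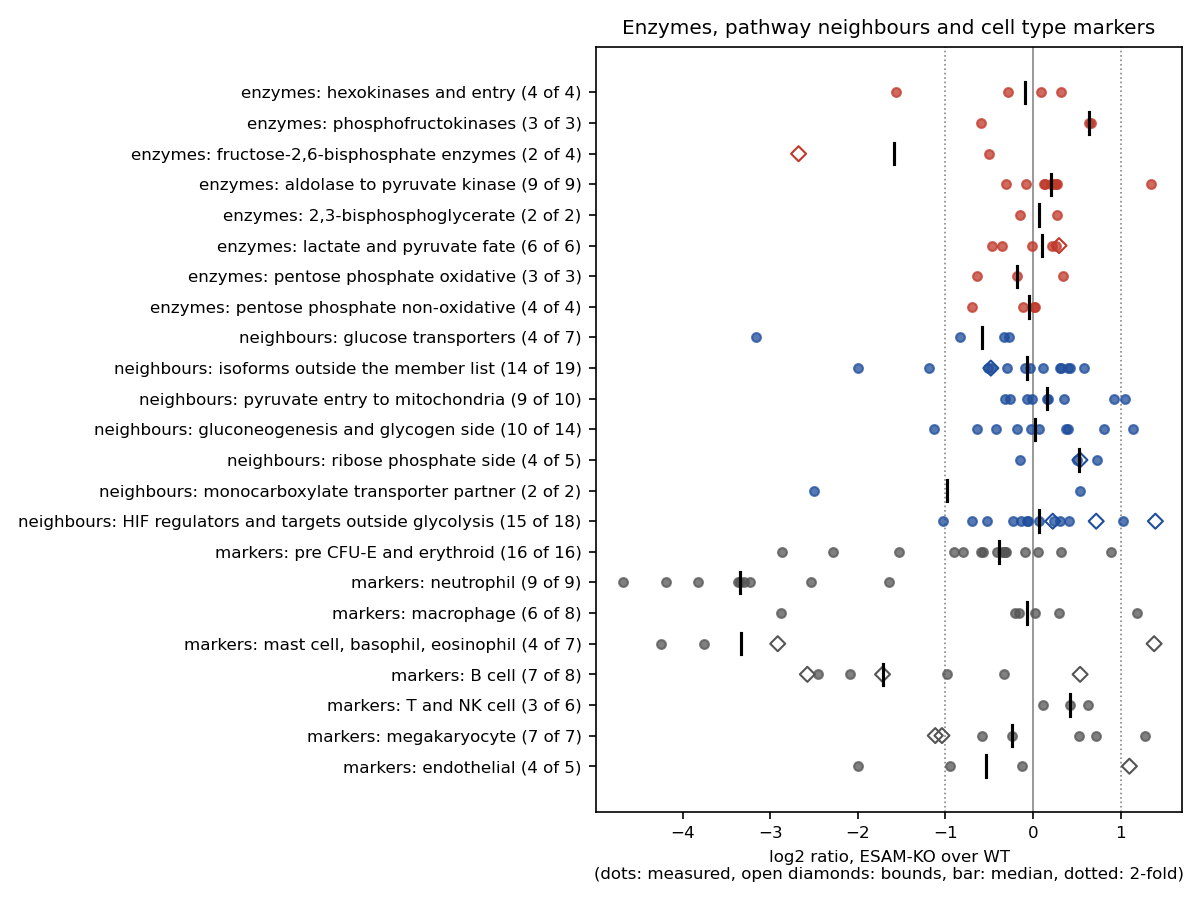
Log2 ratio of ESAM-KO over WT for the enzymes by role (red), the pathway neighbours (blue) and cell type markers (grey), 1 dot a gene, open diamonds for bounds and a bar for the median, with the number of genes that have a ratio out of the list in brackets. The enzymes lie mostly within 2-fold, and the 9 neutrophil markers all lie below -1.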

How the data were processed

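Sorted pre CFU-E of either genotype, from mice given 5-FU, were hybridised to 1 array each. Slide and scan were shared. The authors deposited, for each spot, the processed intensity of Agilent Feature Extraction 10.10.1.1 (version from the submitters' processing notes), corrected for background but not scaled between arrays. The deposited series table holds these intensities rounded.

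Each array's log2 intensities were set relative to their 75th percentile. Control spots were left out, as were 254 outlier spots among the 59305 other spots, and 55680 probes remained. Replicate spots were averaged as log2 values. A probe passed as well above background if the scanner software passed over 50% of its spots. It passed 57.3% of spots for WT and 61.1% for ESAM-KO. No spot was saturated. The files hold transcript accessions, and RefSeq tables of GRCm38.p6, used for names and promoter windows, named 27235 probes, or 48.9%. Symbols are those of that table. Of genes with several probes, the brightest by mean signal was used. A bound under 1-fold gives no ratio.

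Every enzyme is named, as are the pathway neighbours past 2-fold and Slc2a1, Hif1a, Tigar, Mpc1, Mpc2, Bsg and Esam. Eno1b, S100a9 and the single markers were named after their values were seen. The enzymes and all lists were chosen with earlier results of these data known. No test was made, since each genotype has 1 array, and the number of arrays limits the precision. The alternatives were other scalings, limma's quantile, cyclic loess and normexp (offset 50, on median spot signals, because the files hold no mean signals), the series table, other filters, probes and thresholds. The counting was tested on simulated data. Python 3.11.15, pandas 2.3.3, numpy 2.4.6, R 4.3.3 and limma 3.58.1 were used. The value of 1 marker is not reported here.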

Additional observations from a re-analysis of the deposited data

How the results depend on the processing

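The number of enzymes higher in ESAM-KO by more than 2-fold, 1, was 2 with no filter on dim probes, 3 at 1.5-fold and 0 at 3-fold. The number lower, 2, was 1 with normexp and quantile normalization, 1 when both arrays had to be well above background, 5 at 1.5-fold and 1 at 3-fold. The number of pathway neighbours past 2-fold, 10, was 4 with normexp, 16 with no filter, 17 at 1.5-fold and 3 at 3-fold. Filter and threshold act on these counts by construction, and normexp adds an offset to every signal. The median log2 ratio of the enzymes, 0.02, was 0.34 without scaling, where that of all genes was 0.31, and the latter was -0.13 with median scaling and -0.14 with no filter. The share of lower genes among all genes past 2-fold was 54.7%, 66.8% with median scaling, 67.3% with normexp and 28.8% without scaling. The remaining settings kept these counts within 1.5 times. Of 585 values of 49 named genes under the alternatives, 519 moved by less than the scanner error, 66 moved further, and the genes past 2-fold all kept their direction. Pfkp moved to -0.14 with the mean of its probes and to 0.30 with its other probe. No paired analysis was possible because there was 1 array a genotype, and no replicate could be left out. Signal over background leaves Pfkfb1 and Pfkfb2 without a ratio and Pfkfb4 and Ldhb with a bound.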
